A study of Mus musculus with 14 samples.

Results

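The cells described here are E14.5 hindbrain neurons of the Atoh1 lineage that carry Pax5 and Zfhx3 transcripts and lack the anterior Hoxb genes. They were chosen by UMIs (unique molecular identifiers, 1 per captured transcript) in single cells. A cell of an E14.5 library was taken as a member if it had at least 1000 genes and under 10% mitochondrial UMIs, at least 1 UMI of Pax5, at least 1 of Zfhx3 and at least 5 of Mapt, which encodes the axonal protein tau. It also had to have no UMI of Hoxb2, Hoxb3, Hoxb4 or Hoxb5, of Gad2 (an enzyme that makes GABA) or of Pax6. The rule gave 2523 members among 49696 kept E14.5 cells (60732 barcodes), in a series of 150188 barcodes over 14 libraries that also covers E18.5 and P5. All limits but those on Pax5 and Zfhx3 are called the gate below, and 9694 kept cells passed it.

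The study asked how partial loss of Atoh1 function changes the neurons that arise from Atoh1-expressing progenitors of the hindbrain. Controls were Atoh1Cre/+; Rosa lsl-tdTomato/+ and mutants were Atoh1Cre/S193A; Rosa lsl-tdTomato/+, called Atoh1S193A/- below, all on the C57BL/6J strain. S193A replaces a serine of the Atoh1 protein and is a hypomorphic allele. The Cre knock-in is the minus allele in the mutant's name, so controls also carried it beside 1 normal copy of Atoh1. Each of the 6 E14.5 libraries came from the whole hindbrain of 1 embryo, a mutant with a control littermate in each of 3 pairs, dissociated and sorted for tdTomato. The label marks every cell whose ancestors used Atoh1Cre, so it is not restricted to 1 nucleus. Pairs below are libraries with the same replicate number, which were taken as littermates.

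Pax5 encodes a paired-box transcription factor that, with the engrailed genes En1 and En2, is used in the embryo around the boundary of midbrain and hindbrain. Hox genes mark the more caudal segments of the hindbrain, and the first segment behind the boundary has none, which is why a neuron without them is called rostral. Zfhx3 and Zfhx4 encode very large zinc-finger homeobox factors. Atoh1 directs the rhombic lip, the dorsal edge of the hindbrain that gives rise to granule cells, pontine nuclei, cerebellar output neurons and several groups of rostral hindbrain neurons.

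Control libraries 1, 2 and 3 held 236, 660 and 511 members, against 169, 687 and 260 in Atoh1S193A/- libraries 1, 2 and 3. The libraries held 121762137 to 193872318 UMIs in all, and the median depth of members was between 13172 and 16044 UMIs per cell in the 6 libraries. No barcode was shared between members of different libraries, while 257 of the barcodes of kept E14.5 cells (0.520%) occurred in more than 1 library. The 2 libraries with replicate number 2 stood apart from the other 4. Both lay above all other libraries for 1771 and below them for 1678 of 9372 genes tested in the members (36.8%), against 28.8% for pair 1 and 14.3% for pair 3. Control libraries 1 and 2 were made with another software version (Cell Ranger 3.1.0) than the other 4 (5.0.1). The transcript of the inactive X, Xist, was over 1000 CPM (UMIs of a gene per 1000000 UMIs of the members summed) in members of control 1, control 3 and mutant 3 and under 1 CPM in the other 3 libraries, so the littermates of pair 1 differed in it. The paper lists control 1, control 3 and mutant 3 as female and the other 3 as male, so pair 1 differed in sex.

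The rule used Pax5 and Zfhx3, so their levels describe the choice and test nothing. Pax5 (chr4:44524757-44710487, minus strand, GRCm38) had a median of 3 UMIs per member and Zfhx3 (chr8:107942644-108961630, plus strand) a median of 10. A single Pax5 UMI was the evidence for 600 members (23.8%), 2 UMIs for 408, 3 or 4 for 531 and 5 or more for 984. Just outside the limit, 3707 cells met every condition except Pax5, and 1060 met every condition except Zfhx3. Hox-negative status removed 1302 cells that met the other conditions, Pax6 removed 342, Mapt 316 and Gad2 200.

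The 3 marker genes that the rule did not use are described next. They were named with earlier results of these data known, so their levels describe the label and do not test it. Zfhx4 (chr3:5218526-5415857, plus strand), the relative of Zfhx3, stood at 183, 347 and 260 CPM in members of control libraries 1 to 3, compared with 192, 369 and 239 CPM for the mutant libraries. Values in both pair 2 libraries were the highest. C1ql4 (chr15:99084086-99087817, minus strand), a secreted C1q-like protein of synapses, had 308, 317 and 258 CPM in control and 218, 402 and 297 CPM in mutant libraries. Pou3f2 (chr4:22482780-22488366, minus strand), a POU-domain factor of newborn neurons, varied least, with 696, 646 and 607 CPM in control and 694, 715 and 697 CPM in mutant libraries. For comparison, the 2404 gated cells with neither Pax5 nor Zfhx3, called other gated neurons below, had means of 15.5 CPM of Zfhx4, 27.2 CPM of C1ql4 and 186 CPM of Pou3f2 over the 6 libraries. The median log2 ratio of members over other gated neurons was 4.06 for Zfhx4 (range over libraries 3.20 to 4.49), 3.48 for C1ql4 (2.83 to 4.14) and 2.03 for Pou3f2 (1.30 to 2.19). No test is given for these ratios, because both groups were chosen by genes measured in the same cells.

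A UMI of Zfhx4 was found in a median of 75.8% of members per library, of C1ql4 in 60.4% and of Pou3f2 in 89.4%. All 3 were found together in 1355 members (53.7%) and none of them in 74 (2.93%). Cells were then thinned to 8000 UMIs each, which left out 161 shallower members. At this depth C1ql4 was found in a median of 53.3% of members, 9.66% of other gated neurons and 0.66% of dividing cells, which are cells with at least 2 UMIs of Mki67 and Top2a together and no Mapt UMI and should lack it. Before thinning, the median depth was 14583 UMIs in members, 16747 in other gated neurons and 25875 in dividing cells. Zfhx4 was found in 62.6% of members, 8.24% of other gated neurons and 19.9% of dividing cells, so dividing cells also carried it. Pou3f2 was the most widely shared of the markers. After thinning it was found in 84.2% of members, 51.6% of other gated neurons and 41.8% of dividing cells.

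Cells that carried only 1 of the 2 genes of the rule showed which marker went with which. Zfhx4 had a mean of 254 CPM in cells with Zfhx3 only, close to the 265 CPM of the members, and 31.1 CPM in cells with Pax5 only. En1 had the opposite arrangement, with 111 CPM in cells with Pax5 only, 29.2 CPM in cells with Zfhx3 only and 122.5 CPM in members. Pou3f2, C1ql4 and Hs3st4, which encodes an enzyme that sulfates heparan sulfate, were highest where both genes were found. Pou3f2 had 257 CPM with Pax5 only and 210 CPM with Zfhx3 only against 676 CPM in members. C1ql4 had 42.8 and 115 CPM against 300 CPM, and Hs3st4 had 74.2 and 68.2 CPM against a member range of 217 to 325 CPM. Members with a single Pax5 UMI still had a lowest library value of 363 CPM of Pou3f2 and 189 CPM of Zfhx4, and those with 5 or more had lowest values of 752 and 194 CPM. En1 and En2 were lower where Pax5 was low, with medians over libraries of 55.5 and 63.4 CPM in members with a single Pax5 UMI and of 161.7 and 173 CPM in those with 5 or more. En1 was 35.9 to 55.6 CPM in other gated neurons and 43.2 to 93.5 CPM in members with a single Pax5 UMI, so these ranges overlapped.

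**Figure D1:**
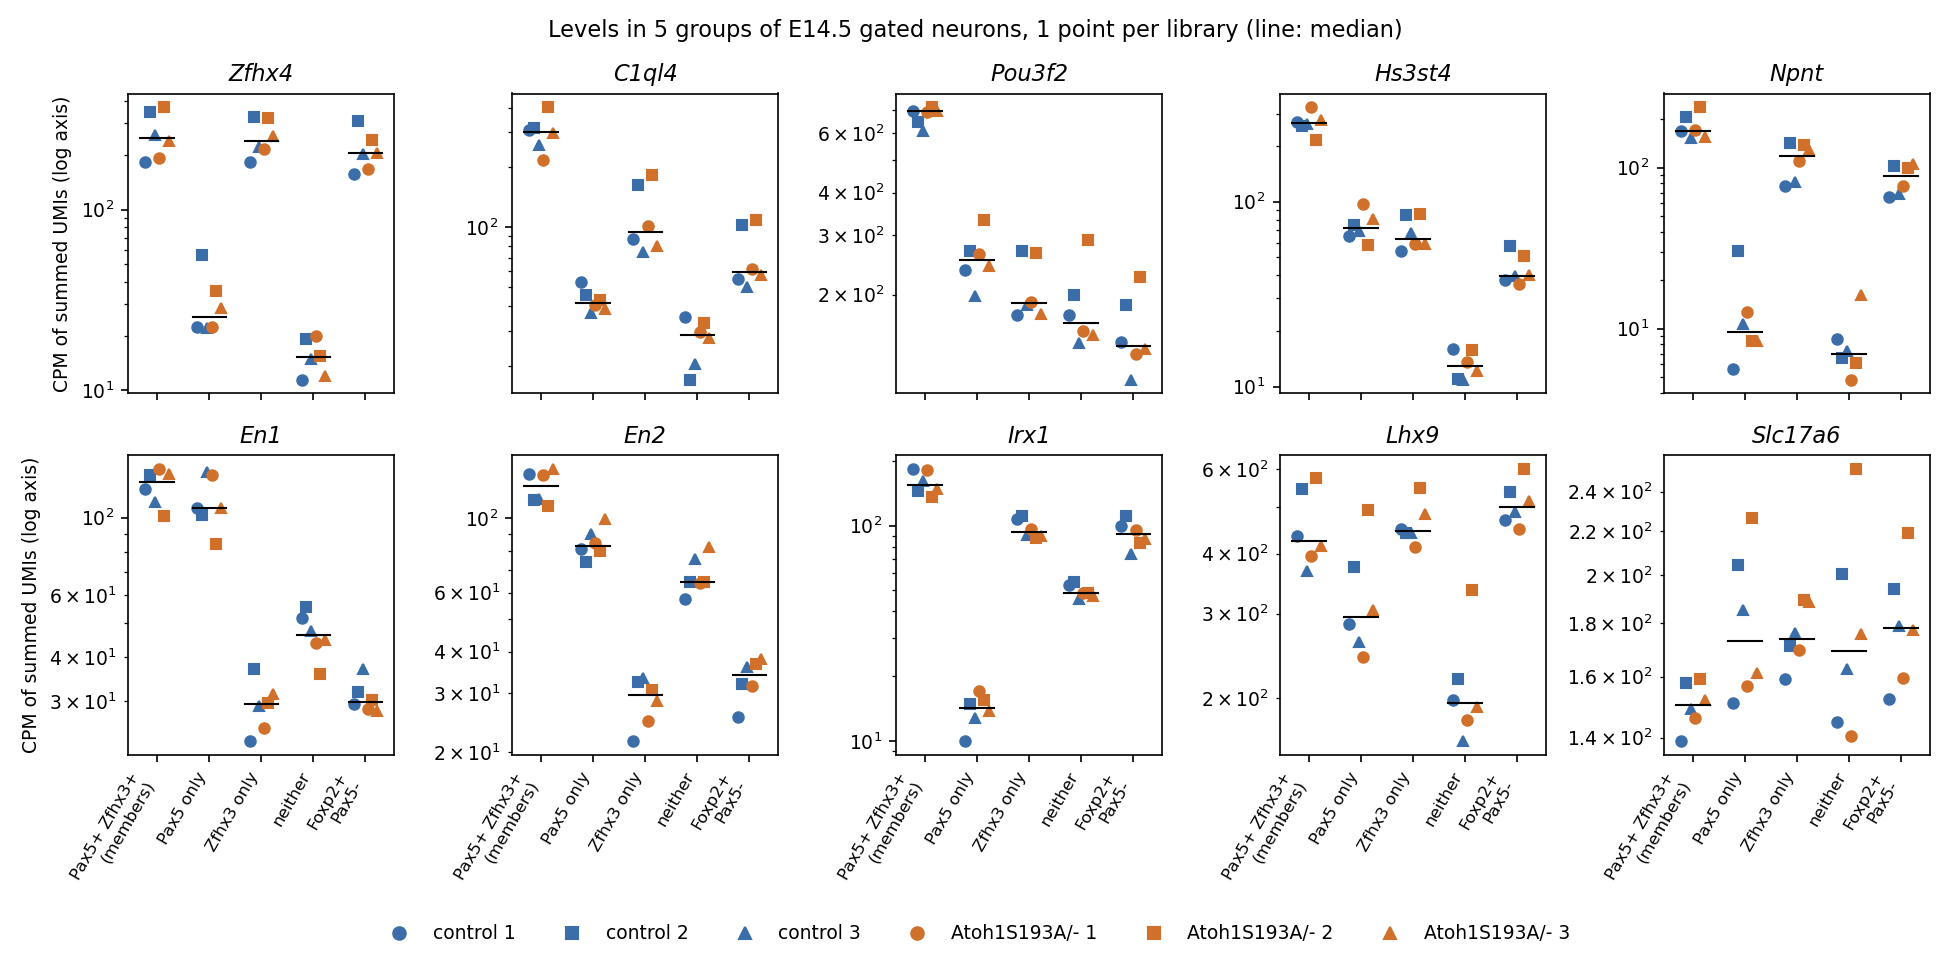
CPM of summed UMIs (log axis) for 10 genes in members, in gated cells with Pax5 only, with Zfhx3 only or with neither, and in gated Foxp2 cells without Pax5; each point is 1 of the 6 E14.5 libraries and the line is the median. Zfhx4 is about as high in cells with Zfhx3 only as in members, while En1 is about as high in cells with Pax5 only, and Pou3f2, C1ql4 and Hs3st4 are highest in members.

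Engrailed and Iroquois genes of the boundary list were found in the members. En1 had 121, 132 and 111 CPM in control and 137, 101 and 133 CPM in mutant libraries, and the groups overlapped. En2 ranged from 109 to 140 CPM over the 6 libraries. The Iroquois genes Irx1 and Irx2, which encode homeodomain factors, ranged from 136 to 183 CPM and from 159 to 215 CPM, and Irx3 from 85.2 to 147 CPM. Of 7 measured genes of the boundary list with at least 20 CPM, 4 were higher in members than in other gated neurons in all 6 libraries with a median log2 ratio over 1, namely En1 (1.35), Irx1 (1.70), Irx2 (1.11) and Spry2 (1.89), an inhibitor of FGF signaling. None was lower by the same rule. En1 was about as high in gated cells with Pax5 but no Zfhx3 UMI, from 84.1 to 134 CPM. Irx1 was only 9.93 to 17.0 CPM in those cells, below its 45.8 to 54.5 CPM in other gated neurons. It was 87.6 to 111 CPM in gated cells with Zfhx3 only and 74.0 to 111 CPM in gated Foxp2 cells without Pax5. Over all 6582 genes at this level, 1.85% were higher and 1.37% lower by the rule of 1 log2 unit in all 6 libraries. Otx2, a midbrain and forebrain factor, was between 1.29 and 8.92 CPM in members against a mean of 130 CPM in kept cells outside the gate. At equal depth it was found in a median of 2.84% of members, 1.12% of other gated neurons and 62.0% of dividing cells. Its low level was thus shared by other gated neurons. The boundary list also held 7 genes under 1 CPM in every library. Among 20 Hox genes that the rule did not use, none reached 20 CPM in members and 8 stayed under 1 CPM in every library. Hoxa5, the highest, had a mean of 5.77 CPM in members and 236 CPM outside the gate. The gate excludes Hoxb2 to Hoxb5, so this contrast was in part set by the rule. At equal depth Hoxa5 was found in a median of 3.57% of members and 4.66% of other gated neurons.

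Of 10 zinc-finger homeobox and POU genes at 20 CPM, 5 were higher in members than in other gated neurons by the rule above, 5 were neither higher nor lower and none was lower, with a median log2 ratio of 1.22 over the 10, against 0.05 over all 6582 genes. Besides Zfhx4 and Pou3f2, both among the markers given for these neurons, these included Zfhx2 (1.90) and Pou2f2 (1.47). Pou3f1, Pou3f3 and Pou3f4, relatives of Pou3f2, had median ratios of 0.96, 0.45 and 0.57.

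Of 23 lineage factors of the rhombic lip at 20 CPM, 5 were higher in members than in other gated neurons, 5 lower and 13 neither, and the median log2 ratio over the 23 was 0.05, as over all genes. The higher ones were Lhx2 (median log2 ratio 1.78) and Lhx9 (1.13), LIM-homeodomain factors, Nhlh2 (1.19), a bHLH factor of postmitotic neurons, Bcl11b (1.33) and Evx1 (2.53), a homeodomain factor known from spinal commissural neurons. The lower ones were Olig2 (-4.44), Tbr1 (-4.01), Foxp1 (-2.18), Ebf3 (-1.14) and Tshz1 (-1.02). Olig2 was between 1.55 and 9.01 CPM in members and between 99.6 and 198 CPM in other gated neurons. Lhx9 ranged from 369 to 573 CPM, with both pair 2 libraries highest, and was as high in gated cells with Zfhx3 but no Pax5 UMI, from 413 to 547 CPM. Meis2 (mean 1655 CPM), Sox11 (2501 CPM) and Sox4 (1466 CPM), factors common to young neurons, were the most frequent transcripts of the list. Barhl1, a factor of granule and pontine lineages, had a mean of 10.4 CPM in members and 237 CPM outside the gate. The gate excludes Hoxb2 to Hoxb5 and also Pax6, which the paper uses beside Barhl1 to mark these lineages. This contrast was thus in part set by the rule.

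The main transmitter gene of the members was that of glutamate neurons. Slc17a6, which encodes the vesicular glutamate transporter VGLUT2, had 139, 158 and 149 CPM in control and 146, 159 and 152 CPM in mutant libraries, close to the 179 CPM of other gated neurons. It was found in a median of 77.1% of members. After thinning the shares were 61.7% in members and 14.53% in dividing cells. The rule excluded Gad2, and the inhibitory genes that it did not use were nearly absent. At equal depth Gad1 was found in a median of 0.19% and Slc32a1 in 0.66% of members, against 0.38% and 0.24% of dividing cells. Of 11 inhibitory neuron markers none reached 20 CPM and 5 stayed under 1 CPM in every library.

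Genes of 2 other transmitter systems were found in minorities of the members. Th, which encodes tyrosine hydroxylase of catecholamine synthesis, had 68.0, 85.3 and 37.3 CPM in control and 21.7, 42.9 and 67.0 CPM in mutant libraries, with overlapping groups. Slc5a7, the choline transporter of cholinergic neurons, ranged from 17.5 to 29.4 CPM. The median log2 ratios over other gated neurons were 3.53 for Th and 3.03 for Slc5a7, higher in all 6 libraries. At equal depth, a Th UMI was found in a median of 14.3% of members, 2.17% of other gated neurons and 0.17% of dividing cells. The same shares for Slc5a7 were 9.70%, 1.80% and 2.08%. Slc18a3, the vesicular acetylcholine transporter, was found in a median of 4.19% of members and in at most 0.113% of dividing cells of any library. Chat, which makes acetylcholine, was found in 1.59% of members and in at most 0.198% of other gated neurons of any library. Slc18a3 lies inside the span of Chat (chr14:32408203-32465989, minus strand), so reads of the 2 genes may be hard to assign.

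Among neuropeptide genes, Sst (somatostatin) was the most frequent, from 135 to 446 CPM, and it was found in a median of 25.1% of members. Mean Sst was 274 CPM in members, 340 CPM in other gated neurons, 1212 CPM in cells with Pax5 only and 985 CPM in gated Foxp2 cells. Only Cck (cholecystokinin) was higher than in other gated neurons by the rule above, at 9.01 to 50.3 CPM. Nts and Adcyap1 had mean levels of 1.83 and 14.1 CPM in members and of 24.3 and 34.2 CPM in other gated neurons.

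Of the synaptic organizers, C1ql4 (ratio 3.48), C1ql3 (1.43) and Lrrtm2 (1.04) were higher, Cbln1 was lower (-1.59) and the other 12 of 16 genes at 20 CPM were neither. C1ql3 ranged from 204 to 339 CPM. C1ql1 had a mean of 39.3 CPM in members and 39.7 CPM in other gated neurons, but 334 CPM in gated Foxp2 cells. The presynaptic and postsynaptic adhesion genes Nrxn2 (mean 227 CPM) and Nlgn1 (45.5 CPM) both had a ratio of 0.09.

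Among 29 axon guidance genes at 20 CPM, 2 were higher and 6 lower than in other gated neurons. Dcc (1.56), a netrin receptor, and Nrp1 (1.33), a receptor of class 3 semaphorins, were higher. Epha5 (-1.67), Epha7 (-1.75), Sema6d (-1.61), Ntng1 (-1.78), Plxna4 (-1.20) and Nrp2 (-1.03) were lower. Robo2 (mean 193 CPM), a Slit receptor, and Efnb3 (107 CPM) were among the most frequent of the list, with ratios of 0.79 and 0.59. Of 14 cadherins at 20 CPM, Cdh4 (1.59) and Cdh13 (1.05) were higher and Cdh10 (-1.16) and Pcdh9 (-1.19) lower. Ion channel and receptor genes had 3 of 20 higher (Gria1 and Cacna2d1 among them) and 3 lower (Grik2, Gabra2 and Kcnd2).

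General neuronal genes were alike in members and other gated neurons, except for neurofilaments. Of 24 maturation genes at 20 CPM, none was higher and 2 were lower, Nefl (-1.94) and Nefm (-1.38). Stmn2 (mean 4002 CPM), Tubb3 (3095 CPM) and Gap43 (2900 CPM), which encode proteins of growing axons, had ratios of -0.02, -0.06 and 0.26. Prph, which encodes the intermediate filament peripherin, ran the other way at 29.0 to 116 CPM, with a ratio of 2.76. Prph and C1ql4 lie close together on chromosome 15 (Prph at chr15:99055174-99058978, plus strand). In the cell death and Notch list, Hrk, a proapoptotic BH3 gene, was lower (-2.002) and the other 6 of 7 genes at 20 CPM were neither.

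Over all genes at 50 CPM or more, the 15 with the largest median ratio included 2700069I18Rik (4.63), Npnt (4.51) and Hs3st4 (4.42). Their order depended on the 1 CPM added before the ratio, and with 5 CPM they were at 3.34, 3.93 and 4.04. Npnt encodes nephronectin, an integrin ligand of the extracellular matrix, and ranged from 154 to 238 CPM in members and from 4.82 to 16.1 CPM in other gated neurons, while it ranged from 77.3 to 142 CPM in gated cells with Zfhx3 but no Pax5 UMI and from 65.8 to 106 CPM in gated Foxp2 cells. 2700069I18Rik is annotated as an antisense gene that overlaps the start of Zfhx4, and Evx1os (2.46) overlaps the start of Evx1 in the same manner. Dmrtb1 (3.82), a DM-domain factor, Bnc2 (2.73), a zinc-finger gene, Plpp4 (2.79), Palmd (2.14) and D930028M14Rik (2.01) were also among them. The 10 genes with the smallest ratio included Calb2 (calretinin, -4.64), Olig2, the bHLH genes Neurod2 (-3.36), Neurod6 (-2.81) and Neurod1 (-2.54), Id2 (-2.57) and Pcp4 (-2.31), as well as Kitl (-2.56), Nfix (-2.42) and Esrrg (-2.33). Calb2 varied most between libraries, from 2.25 to 43.8 CPM in members, with ratios from -5.65 to -1.79.

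**Figure D2:**
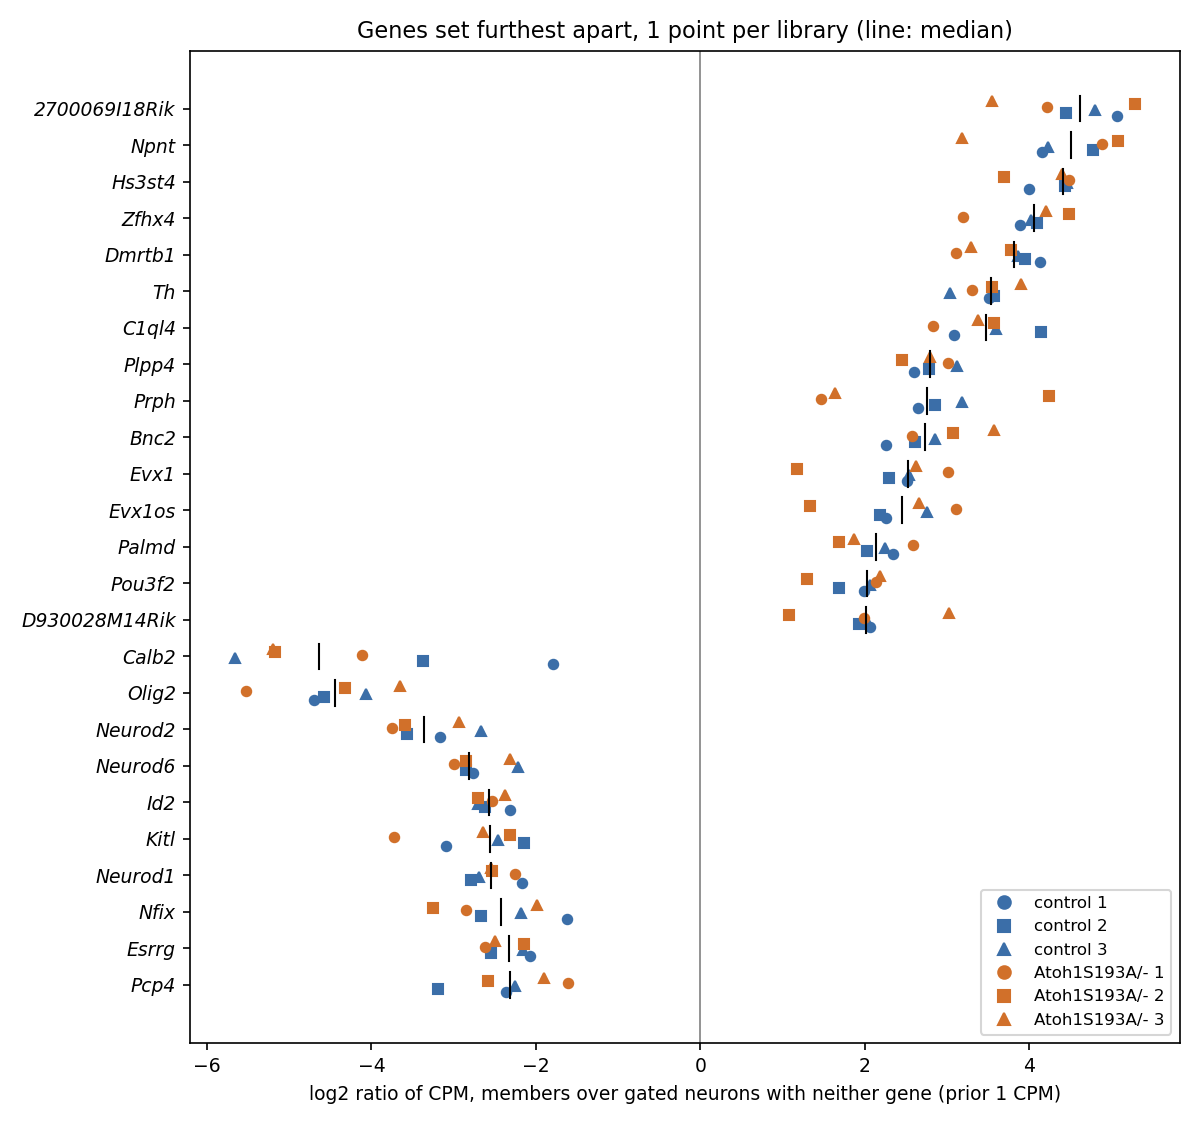
Log2 ratio of CPM of members over gated neurons with neither Pax5 nor Zfhx3 (x axis, 1 CPM added to both) for the 15 genes with the largest and the 10 with the smallest median ratio; each point is 1 library and the short line is the median. All points of the upper group lie above 1 and all points of the lower group under -1.

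The gated cells with at least 1 Foxp2 UMI and no Pax5 UMI (2336 cells, some of which carry Zfhx3) were compared in the same way. Members were near them in Zfhx4 (median log2 ratio 0.22) and Lhx9 (-0.15). Members had more Pou3f2 (2.29), C1ql4 (2.12), En1 (2.01), En2 (1.82), Hs3st4 (2.73) and Evx1 (2.28), and less C1ql1 (-2.98), Nr4a2 (-2.70) and Sst (-1.92). By the rule above, 1.22% of 6576 genes were higher and 1.31% lower in members than in these cells. Foxp2 was itself found in 618 members. At equal depth it was found in a median of 19.5% of members, 17.6% of other gated neurons and 31.0% of dividing cells. Members with Foxp2 had more Cbln2 (2.06), Nr2f2 (1.54) and Tshz2 (1.33) and less Irx2 (-0.95), Irx1 (-0.84) and En1 (-0.72) than members without it. Their median UMI count was higher in every library except mutant 1, for example 15115 against 12901 in control 2.

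Th and Slc5a7 were found in largely separate members. These splits were chosen after the values had been seen, and they are descriptions without a test. A Th UMI was found in 427 members and a Slc5a7 UMI in 351, and only 14 had both. Th was found in 3.99% of members with Slc5a7 and in 19.01% of those without. Per library, 11.9% to 22.4% of control members and 7.69% to 19.2% of mutant members had Th, and 12.2% to 16.6% of members of all libraries had Slc5a7. The median UMI count was higher in members with Slc5a7 than in those without in 3 of the 6 libraries and lower in the other 3.

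Members with Th had more Ppp1r17 (median log2 ratio 4.08 over members without Th), Robo3 (3.58), Nfib (2.91), Cntn2 (2.33), Lhx2 (2.32), Zic2 (2.40) and Nrp1 (1.497). Robo3 and Cntn2 act in early axon outgrowth across the midline, Nfib is a nuclear factor I gene, and Gadd45g (3.01) and Dll1 (1.53) are genes of newly born neurons. En1 (1.38), En2 (1.17) and Slc17a6 (0.95) were also higher with Th. Gap43 (-0.70), Zfhx3 (-0.77), Zfhx4 (-1.32), Irx1 (-1.77) and Slc5a7 (-3.24) were lower. Each of these directions was the same in all 6 libraries. By the rule of 1 log2 unit, 122 of 6665 genes were higher and 86 lower in members with Th.

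Members with Slc5a7 had more Npnt (1.69), Irx4 (1.87), Irx2 (1.32), Irx1 (1.25), Zfhx4 (1.14), C1ql4 (0.79), Sv2c (2.34), a synaptic vesicle protein, Ngb (2.85), which encodes neuroglobin, Cdh7 (2.00) and Cdh12 (1.81). They had less Lhx2 (-2.72), Lhx9 (-2.27), C1ql3 (-2.32), Foxp2 (-1.97), Evx1 (-1.92), En1 (-1.39) and En2 (-1.05), again in the same direction in all 6 libraries. Zfhx4 was found in 96.9% of members with Slc5a7 and in 75.4% of those without, and Lhx9 in 31.3% and 80.4%. A Slc18a3 UMI was found in 14.53% of members with Slc5a7 and in 5.02% without, and a Chat UMI in 5.98% and 1.80%. In all, 45 of 6603 genes were higher and 62 lower with Slc5a7.

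Evx1 was found in 1084 members and more often in members with Th than in those without. Of members with Th, 65.1% had Evx1, against 38.5% of those without, and of members with Slc5a7, 15.4% had it, against 47.4%. Lhx9 was found in 95.9% of members with Evx1. Members with Evx1 had a higher median UMI count than those without in every library except mutant 3, for example 14812.5 against 13402 in mutant 2. Th (2.11), Ppp1r17 (2.06), Maf (1.75), Bnc2 (1.51), C1ql3 (1.16) and Lhx9 (1.03) were higher in members with Evx1, and Slc5a7 (-2.26), Cdh7 (-1.68), C1ql1 (-1.47), C1ql4 (-1.23) and Zfhx4 (-0.75) were lower. Cells of 1 embryo are not replicates, and splits by a sparse transcript put cells with undetected transcripts in the group without it.

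**Figure D3:**
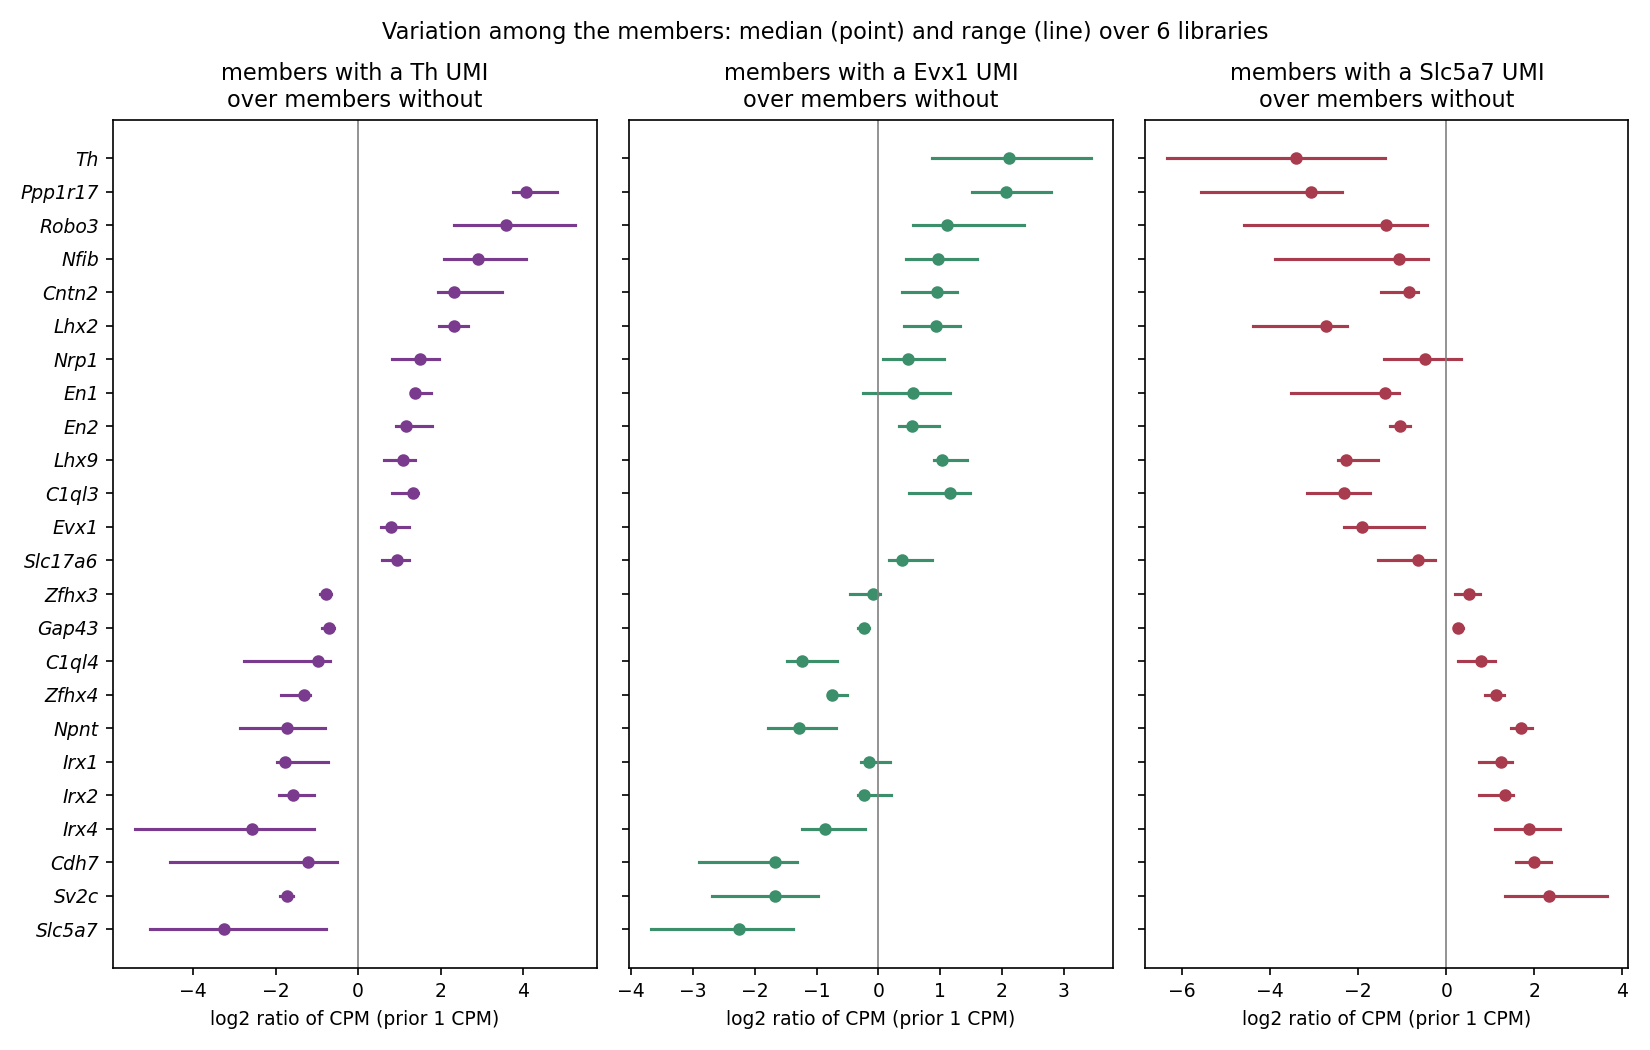
Log2 ratio of CPM (x axis, 1 CPM added) of members with a UMI of Th, Evx1 or Slc5a7 over members without one, for 24 genes; points are medians and lines the range over the 6 libraries. Lhx2, Lhx9, C1ql3 and En2 lie to the right for Th and Evx1 and to the left for Slc5a7, and Zfhx4, C1ql4 and Npnt do the opposite.

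Summed markers of dividing progenitors, glia and granule cells were lower in members than outside the gate. The sum for cranial motor and monoamine neurons was higher, through a few genes of that list. The gate asks for Mapt and excludes Pax6, so the lower sums were in part set by the rule. Over other gated neurons, the median log2 ratio was -0.29 for 2 progenitor, -0.38 for 3 glia and -0.52 for 6 granule genes at 20 CPM. Summed over 12 dividing progenitor markers the level was 134 to 190 CPM in members and 1074 to 2245 CPM outside the gate. The 10 glia markers summed to 53.0 to 105 CPM against 290 to 620 CPM, and the 10 granule lineage markers, which include Lhx2, to 412 to 607 CPM against 1584 to 1811 CPM. The list of cranial motor and monoamine markers summed to 69.3 to 124 CPM in members and 25.6 to 43.2 CPM outside the gate, in members nearly all of it Th, Slc5a7 and Slc18a3. Of its 12 genes, only 2 (Th and Slc5a7) reached 20 CPM, and 5 stayed under 1 CPM in members of every library. Globin transcripts differed between libraries. The microglia, vessel and blood list summed to 63.2, 1668 and 40.8 CPM in control and 669, 9.39 and 24.3 CPM in mutant libraries, mainly Hbb-bs in control 2 (796 CPM) and Hbb-y in mutant 1 (471 CPM), and to 20.9 to 752 CPM outside the gate. The list of dissociation response genes summed to 1126, 562 and 762 CPM in control and 1068, 818 and 928 CPM in mutant libraries. Their part in the results below was not tested.

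The share of members was compared between genotypes over libraries, each of which is 1 embryo. Of kept cells, 3.68%, 7.45% and 5.26% were members in control libraries 1, 2 and 3, compared with 2.13%, 8.27% and 3.07% for the Atoh1S193A/- libraries. The exact 95% binomial intervals, which cover counting error only, ran from 1.82% to 2.47% in mutant 1 and from 7.69% to 8.89% in mutant 2, the lowest and the highest library. The mutant had the smaller share in pairs 1 and 3 and the larger share in pair 2. Means were 5.47% ± 1.89 (SD, n = 3) for control embryos and 4.49% ± 3.31 (SD, n = 3) for Atoh1S193A/- embryos, and the groups overlapped. The logit of the share differed by -0.34 ± 0.36 (SE) with an adjusted p of 0.496 by limma over 5 classes of kept cells, and 0.191 with the littermate pairs as a block. The exact two-sided permutation test gave p = 0.7, with 0.1 the smallest p that 3 against 3 libraries allow.

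This comparison rested on pair 2. Without mutant library 2 the logit difference was -0.75 with an adjusted p of 0.0105 by limma, and without both libraries of pair 2 it was -0.56 with an adjusted p of 0.00760 over 2 libraries a genotype. These falls were shared by other cells of the gate. Without mutant library 2 the difference was -0.50 for other gated neurons and -0.61 for cells with Zfhx3 only (adjusted p 0.0321 and 0.0142 by limma). Without pair 2 these were -0.57 and -0.46 (0.00760 and 0.0163). Cells with Pax5 only were at -0.38 and -0.28 (0.0801 and 0.0953). In these fits limma pooled the spread over all classes of kept cells. The SE was 0.20 for every class without mutant library 2 and 0.15 for every class without pair 2. The classes add up to all kept cells, so they are not independent, and these adjusted p-values may be too small. No exact test was run with these libraries left out, so the falls are given as effect sizes and no significance is drawn from them. Leaving out any other single library gave no adjusted p under 0.05 for the members. As a share of gated neurons, members were 19.5%, 29.2% and 26.2% in control and 17.9%, 30.2% and 24.7% in mutant libraries, with a pair difference of -0.69 percentage points ± 1.45 (SD, n = 3 pairs) and an exact sign-flip p of 0.5, where 0.25 is the smallest possible. The gate as a whole held 18.9%, 25.5% and 20.1% of control and 11.9%, 27.4% and 12.4% of mutant cells.

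**Figure D4:**
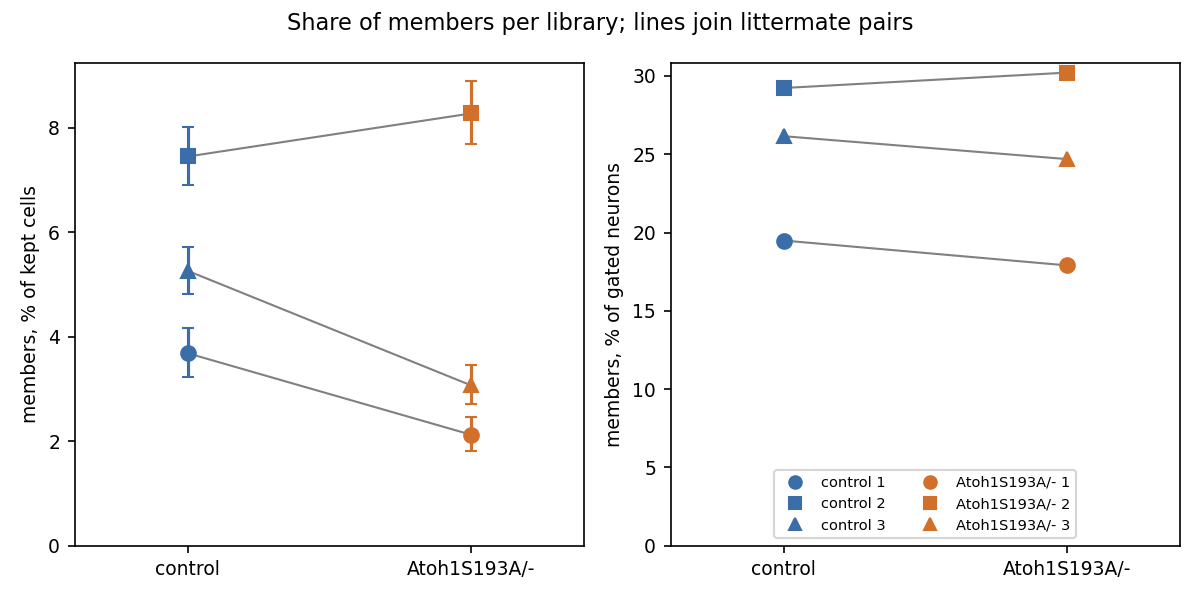
Members as a percentage of kept cells (left, bars are exact 95% binomial intervals) and of gated neurons (right), per library. Lines join libraries with the same replicate number, taken as littermates. Pair 2 is highest in both genotypes and is the only pair in which the mutant share of kept cells is not smaller.

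No gene passed the test between genotypes in the members. UMIs were summed per library, and of 9372 genes tested by edgeR none had an FDR below 0.05 and a log2 change beyond 0.25 in either direction (0%). At an unadjusted p under 0.05 there were 154 genes (1.64%), 118 of them higher (1.26%) and 36 lower (0.384%) in Atoh1S193A/-, and DESeq2 called none, with 61 at this level. With the littermate pairs as a block 1 gene was called (0.0107%), and 8.88% of genes had an unadjusted p under 0.05. It was AC160336.1, a long noncoding RNA gene, with 363, 239 and 1.42 CPM in control and 3.098, 2.82 and 3.97 CPM in mutant libraries. The 2 high libraries were those made with Cell Ranger 3.1.0, and control library 3 was as low as the mutants. In simulated counts, 100 genes were changed 2-fold and 100 changed 4-fold at once, with gene dispersions taken from these libraries. Of these, 87% and 100% were recovered, with 9 unchanged genes also called. Each library was drawn independently, without the shared deviation of same-numbered libraries, so this recovery may not hold for the real libraries. In these, Klf10 (log2 change 0.88) and Aste1 (0.84) were higher without overlap and were not called.

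The marker genes did not differ beyond their spread. The log2 change in Atoh1S193A/- was 0.07 ± 0.09 (SE) for Pou3f2, 0.02 ± 0.19 for C1ql4 and -0.02 ± 0.25 for Zfhx4, with adjusted p-values of 1.00 by edgeR. With the pairs as a block the changes were 0.07 ± 0.06 for Pou3f2, -0.0053 ± 0.12 for C1ql4 and -0.03 ± 0.07 for Zfhx4. The values that follow are from the fit without pairs. En1 was at -0.02 ± 0.14, Slc17a6 at -0.0036 ± 0.09, Slc5a7 at 0.10 ± 0.22 and Th at -0.55 ± 0.36.

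The 10 genes with the lowest unadjusted p did not overlap between genotypes, apart from AC160336.1, and none passed the adjustment over the 6 libraries without pairs. A fit with the pairs as a block and without pair 1 was added after seeing the data. It leaves 4 libraries and 1 residual degree of freedom. In it 9 of the 10 had an adjusted p under 0.05 by edgeR, among 285 of 9382 genes called, and Sord did not. The 10 genes were chosen by their p over all 6 libraries, which include these 4, so this fit gives no separate support. Atoh1 itself was one of the 10, with 8.92, 9.85 and 6.82 CPM in control and 12.005, 20.9 and 13.1 CPM in mutant libraries (log2 change 0.86 ± 0.24, unadjusted p = 0.00544 by edgeR). Without mutant library 2 its log2 change was 0.53. In other gated neurons Atoh1 was at 9.63, 9.96 and 7.86 CPM in control and 9.83, 24.2 and 10.3 CPM in mutant libraries, and the difference between the log2 changes of both kinds of cell was 0.17 ± 0.21, which did not pass the test (unadjusted p = 0.636 by edgeR). These counts do not separate the alleles. Atoh1 in dividing cells was found in a median of 47.2% at equal depth, against 7.22% of members. Axin2, a target and inhibitor of Wnt signaling, had 12.3, 11.3 and 10.4 CPM in control and 16.7, 18.1 and 17.3 CPM in mutant libraries. Klf10, a zinc-finger gene, had 8.92, 8.21 and 8.24 CPM in control and 22.1, 14.2 and 13.1 CPM in mutant libraries. Zbtb18, Aste1, Hpgds and Gpr45 were also higher in all 3 mutant libraries, with log2 changes of 0.56, 0.84, 0.80 and 0.48. Gm2694 (-0.44) and Sord (-0.62) were lower in all 3. Over all 9372 genes, 3.61% had all mutant libraries above all controls and 3.08% had all below.

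Outside that group, 2 genes are named because of their values. Nr2f2, an orphan nuclear receptor gene, had 69.8, 159 and 87.3 CPM in control and 155, 235 and 122 CPM in mutant libraries. Its relative Nr2f1 had 194, 321 and 167 CPM in control and 230, 440 and 259 CPM in mutant libraries. Both were higher in the mutant of every pair, as were 15.7% of all genes tested, and the groups overlapped. The log2 change was 0.65 ± 0.30 for Nr2f2 and 0.41 ± 0.27 for Nr2f1, with adjusted p-values of 1.00 by edgeR, and 0.185 for both with the pair as a block.

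**Figure D5:**
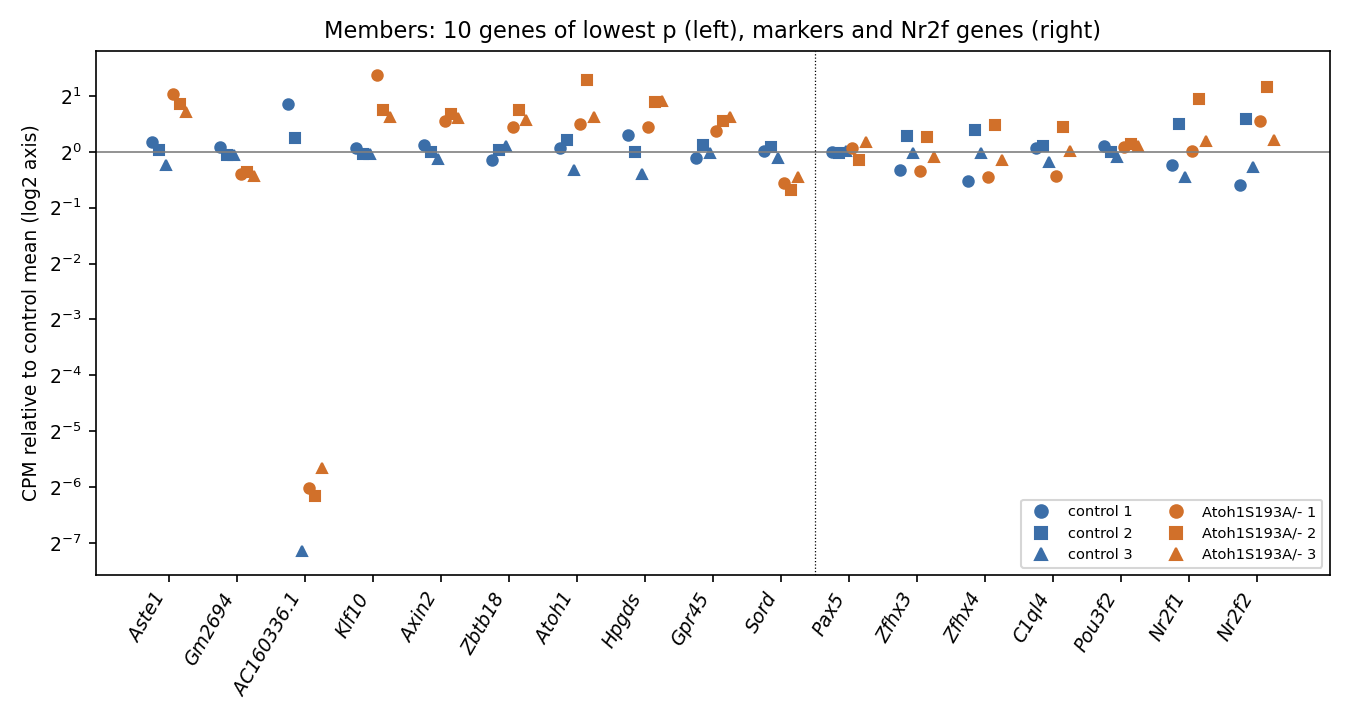
Levels in members relative to the mean of the 3 control libraries (log2 axis) for the 10 genes with the lowest unadjusted p, for the 5 markers and for Nr2f1 and Nr2f2; each point is 1 library. AC160336.1 is high in control libraries 1 and 2 only, and the markers of both genotypes lie around 1.

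By list, no gene was called with or without the pairs. In the fit without pairs, an unadjusted p under 0.05 was reached by 1 of 24 rhombic lip factors tested (Atoh1), 1 of 33 axon guidance genes (Unc5c), 1 of 17 cadherins (Cdh8), 1 of 8 dissociation response genes (Egr1) and the 1 tested gene of the blood list (Hbb-y), all higher in Atoh1S193A/-. For Hbb-y the log2 change of 4.05 came from mutant library 1, which alone was above 20 CPM. No gene did so among 10 zinc-finger homeobox and POU factors, 8 boundary genes, 18 synaptic organizers, 24 maturation genes, 27 channels and receptors or 11 cell death and Notch genes. Median log2 changes in those lists lay between -0.05 and 0.08, against 0.01 over all genes. The 8 dissociation response genes had a median of 0.41.

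With the littermate pairs as a block, 6 of the 8 dissociation response genes had an unadjusted p under 0.05, all higher in Atoh1S193A/-, and their list had a median log2 change of 0.56. They were Fos (0.71), Egr1 (1.09), Ier2 (0.73), Junb (0.64), Btg2 (0.31) and Jun (0.47), of which Jun was higher in 2 of 3 pairs and the others in 3 of 3, and the lowest adjusted p among them by edgeR was 0.185. In the same fit an unadjusted p under 0.05 was also reached by 2 of 8 boundary genes (Spry1 and Spry2, higher), 2 of 10 zinc-finger homeobox and POU factors (Pou3f1 and Pou3f3, higher), 3 of 18 synaptic organizers (Lrrtm1 higher, Cbln1 and Cbln2 lower), 4 of 27 channels and receptors (Gria1 and Gria2 higher, Gria3 and Cacna1a lower), 4 of 11 cell death and Notch genes (Bcl2l11, Hes5 and Dll1 higher, Bax lower) and 1 of 24 maturation genes (Tubb3, lower). Of the rhombic lip factors it was reached by Atoh1, Nr4a2 (higher) and Ebf2 (lower), of the axon guidance genes by 5 of 33, 4 of them higher, and of the cadherins by 2 of 17, both higher. It was also reached by Sst (-0.54), 1 of 2 neuropeptide genes tested, and by the glia marker Fabp7 (-0.55), 1 of 2 tested and lower in 3 of 3 pairs, whose list had a median of -0.39. Hes5, named above, is also 1 of 4 dividing progenitor markers tested, and Hbb-y reached it again. These are unadjusted values, and 8.88% of all genes reached them in that fit.

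Whether the genotype acted differently in members and in other gated neurons was tested as an interaction over the 12 sums. Of 9697 genes none passed in edgeR (0%), 212 had an unadjusted p under 0.05 (2.19%) and DESeq2 called 1 gene. Among the lowest p-values, the interaction on the log2 scale was -1.18 ± 0.17 (SE) for Serpinh1 and -1.43 ± 0.23 for Dpy19l1, both with an adjusted p of 0.413 by edgeR. Serpinh1 had 34.4, 31.0 and 17.0 CPM in control and 25.6, 23.9 and 22.7 CPM in mutant members, and 7.18, 7.55 and 4.09 CPM in control and 12.2, 13.5 and 11.8 CPM in mutant other gated neurons. En1 (0.35 ± 0.08), Sst (-0.61 ± 0.15), Igfbp5, Heatr5a, Snapc1, E430024I08Rik and Hbb-y were also among the 10 lowest p-values, each with an adjusted p of 1.00.

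The same limits on UMIs found few cells at E18.5. There were 12, 15 and 5 cells in control and 9, 10 and 15 in Atoh1S193A/- libraries, 66 in all or 0.120% of 55054 kept cells, against 5.08% at E14.5. The share was between 0.0547% and 0.174% per library. The gate itself held 1.35% to 3.22% of kept cells at E18.5, and as a share of gated neurons these cells were 3.50% to 9.68% per library, against 17.9% to 30.2% at E14.5. Since control library 3 and mutant library 1 had under 10 such cells, no test between the stages was made. The cells had Pou3f2 at 532 to 944 CPM, Zfhx4 at 141 to 432 CPM, C1ql4 at 18.7 to 226 CPM and Slc5a7 at 69.9 to 234 CPM over the 6 libraries, and no UMI of Th. En1 was at 20.4, 61.7 and 319 CPM in control and 29.8, 89.2 and 34.7 CPM in mutant libraries, below the E14.5 members' range of 101 to 137 CPM in 5 of 6 libraries. These values come from sums of 106690 to 293502 UMIs per library.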

How the data were processed

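The authors aligned 10x 3' v3.1 reads to mm10 with Cell Ranger (5.0.1 in the processing notes; the file headers name 3.1.0 for 2 E14.5 control libraries) and deposited raw UMI counts of 31054 genes per barcode. Kept cells and members were chosen by the UMI limits given above, and the members and gene lists were chosen with earlier results of these data known. Member UMIs were summed per library and genes detected in 10% or more of either genotype's members were tested with the quasi-likelihood test of edgeR 4.0.16 (TMM, Benjamini-Hochberg), with DESeq2 1.42.0 as an alternative. Logit shares were tested with limma 3.58.1. Positions are from GENCODE on GRCm38. Ratios used CPM with 1 CPM added. No doublets were removed in the main analysis, and removing the 7.5% of kept cells with the highest Scrublet scores (scanpy 1.11.5) was an alternative. The paper states that each mutant had a littermate control, while the labels give replicate numbers only. Libraries with the same number were assumed to be littermates, and they deviated together (r = 0.29, 0.70 and 0.43). The genes named are the rule genes and markers, genes of each list with the highest level or the most extreme ratio, the leading genes, those with the lowest p, and the genes said to be chosen after their values were seen. The testing script was tested on simulated data. No column of another sample was present. Some genes are not reported here.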

Additional observations from a re-analysis of the deposited data

How the results depend on the processing

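Of 418 alternative values, 388 stayed on the same side of the threshold or within the spread, 16 passed the threshold only under the alternative and 14 moved. Changes of sign in genes that were not called were not counted as reversals. The log2 change of C1ql4, for example, was 0.02 in the main fit and -0.0053 with the replicate block. The logit difference in share ranged from -0.75 to -0.037 when 1 library was left out, and was -0.56 when both replicate 2 libraries were left out, a setting added after seeing the data. With the replicate block it kept its value (-0.34, adjusted p 0.191 by limma). The count of genes called between genotypes, 0 by edgeR, was 1 with the replicate block, 1 without the low-count filter and 0 to 1 when 1 library was left out, and the gene was AC160336.1 each time. Leaving out pair 1, 2 or 3 with the replicate block was also added after seeing the data. It gave 285 of 9382, 4 of 9508 and 9 of 9353 genes tested, each from 4 libraries and 1 residual degree of freedom. The 285 without pair 1 included Atoh1, Axin2, Klf10, Zbtb18, Aste1, Hpgds, Gpr45, Gm2694 and AC160336.1. The 4 genes without pair 2 were AC160336.1, Kdm5d, Eif2s3y and Ddx3y, and the 9 without pair 3 included Xist, Tsix, Th and Sst. Kdm5d, Eif2s3y and Ddx3y are Y-linked, and Xist and Tsix belong to the X-inactivation centre. Both fits hold pair 1, in which the paper lists the control as female and the mutant as male. DESeq2 called 1 gene in the interaction, where edgeR called 0. Of 299 alternative values for named gene changes 285 were unchanged in call, and of 75 for ratios 68 stayed within the spread between libraries. A prior of 5 CPM in place of 1 moved the other 7, for example 2700069I18Rik to 3.34. The test between E18.5 and E14.5, with its alternatives, was not run because 2 E18.5 libraries held under 10 such cells (5 and 9). With 169 to 687 members per library, genes found in few cells were not tested.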
